A study of Mus musculus with 18 samples.

Results

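The genes described here belong to the interleukin-6 (IL-6) family of cytokines and its signalling path. They are the ligand genes Il6, Il11, Osm and Lif, the receptor genes Il6ra, Il11ra1, Osmr and Il6st, the transcription factor gene Stat3 and the feedback gene Socs3. They were chosen by symbol, among microarray probe sets that the array annotation assigns to exactly 1 gene. Of the 10 genes, 9 have such a probe set, 21 probe sets in all, out of 18193 genes on the array with one. Il11ra1, the receptor that binds interleukin-11, is not analysed here.

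Cytokines of this family bind a receptor specific to each ligand and then share a signal-transducing chain, gp130, which Il6st encodes. Receptor-bound Janus kinases phosphorylate STAT3, which enters the nucleus and switches on target genes, among them Socs3, whose protein binds gp130 and shuts the signal down. In the colon this path is known for its part in epithelial repair after injury and in colitis-associated tumours.

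The tissue was colorectum of ICR mice, an outbred stock, all male and aged 6 weeks when treatment began. The treated groups had azoxymethane (AOM, 10 mg/kg), a colon carcinogen, on day 1. Their drinking water then held dextran sulphate sodium (DSS), a polymer that damages colonic epithelium: 2% on days 8 to 14, 1.5% on days 29 to 33 and 1.5% on days 50 to 54. There were 6 groups of 3 arrays, called biological replicates in the labels. Normal mucosa came from mice given saline and distilled water, on day 14. Inflamed mucosa also came from day 14, as the first DSS cycle ended. Low grade dysplasia (LGD) came from day 28, 14 days after that cycle, and high grade dysplasia (HGD) from day 42, 9 days after the second. A further HGD group with active inflammation came from day 56, 2 days after the third cycle, and carcinoma from day 140, 86 days after it. All 5 treated groups received both AOM and DSS, so the effects of the agents cannot be told apart. The later stages have no controls of their own age, so stage and age cannot be told apart for them.

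Values are array signals, a linear summary of brightness for each probe set, with a median of 56.6 over the whole table. Changes are differences of log2(signal + 16), which understate the change of dim genes, and come with their standard error (SE) from limma fitted over 12877 genes on all 18 arrays. A gene was called changed at a Benjamini-Hochberg adjusted p under 0.05 over all genes tested. Medians of the arrays ran from 55.7 to 57.8. LGD replicate 2 stood apart in RNA quality, where the log2 signal of the Gapdh 3' probe set exceeded that of the 5' one by 1.63, while all other arrays lay between -0.08 and 0.16. With 3 arrays a group, precision is limited by their number. These are whole-tissue samples, so fewer cells of a type and less RNA per cell cannot be told apart.

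All 9 measured genes rose in inflamed mucosa at 2 weeks, where 22.6% of all genes tested were called higher. Il6 and Il11 showed the largest increases of the family, followed by Socs3, Osmr and Il6st. No array of inflamed mucosa overlapped an array of normal mucosa in any of the 9 genes, which held in that direction for 29.3% of all genes. At each of the 4 later stages 0 of the 9 passed against normal mucosa by limma's moderated test, and 3, 2, 4 and 0 had an unadjusted p under 0.05 at 4, 6, 8 and 20 weeks. Over all genes, 5.69%, 1.14%, 11.3% and 0.901% were called in either direction at those stages. An unadjusted p under 0.05 was found there for 3146, 2527, 3888 and 2378 of all 12877 genes. All 9 passed the filter on dim genes, but Il6 passed only through the inflamed arrays. Each of its tests with those arrays thus had to start from a difference. Without the filter all 9 were again called higher at 2 weeks, against 18% of 18193 genes. The moderated F test among the 6 groups called all 9 (adjusted p from 5.4e-06 for Stat3 to 0.0159 for Osm by limma), where it called 45.3% of all genes. When the inflamed arrays were left out, an alternative chosen after seeing the data, it called 0 of the 9 and 0.497% of all genes.

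Among the ligands, Il6 encodes the cytokine that induces the acute phase response and is made by myeloid and stromal cells. Its signals in normal mucosa were 8.76, 7.79 and 9.33, and only 6.60 to 8.75 percent of probe sets on those arrays were dimmer. In inflamed mucosa they were 1202, 2804 and 4601. The groups lay far apart, and the log2 change was 6.67 ± 0.90 (SE, n = 3 per group, limma adjusted p = 4.01e-05). It was 8.02 with a pseudocount of 1 and 5.14 with 64, so its size rests on that choice.

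Il6 signals in LGD were 112, 10.9 and 13.2, and in HGD at 6 weeks 41.9, 23.3 and 10.1. In inflamed HGD at 8 weeks they were 559, 9.33 and 34.4, and in carcinoma 8.90, 24.2 and 30.4. Within each later group the arrays thus differed several-fold, and replicate 1 of LGD and replicate 1 of inflamed HGD stood far above the rest. Of the 12 later arrays 11 lay above all normal arrays, inflamed HGD replicate 2 by less than the rounding of its signal, and none reached the lowest inflamed array. The change against normal mucosa was 0.92 ± 0.90 in LGD, 0.66 ± 0.90 in HGD at 6 weeks, 1.87 ± 0.90 in inflamed HGD and 0.55 ± 0.90 in carcinoma, and none passed (limma adjusted p of 0.564, 0.746, 0.175 and 0.791).

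Il11 encodes interleukin-11, a gp130 cytokine made mainly by stromal cells. Its signals were 36.8, 28.4 and 34.3 in normal mucosa and 1022, 3503 and 3199 in inflamed mucosa, a change of 5.53 ± 0.72 (limma adjusted p = 3.13e-05). In LGD they were 217, 63.7 and 30.8, in HGD at 6 weeks 160, 70.3 and 45.2, and in inflamed HGD 470, 51.0 and 84.7. In carcinoma they were 47.5, 120 and 107. All 3 carcinoma arrays lay above all 3 normal arrays, as they did for 14.4% of all genes tested, and Il11 was the one family member for which this held. Its change in carcinoma was 1.06 ± 0.72 (95% interval of -0.48 to 2.60, limma adjusted p = 0.46) and did not pass. The same non-overlap against normal mucosa was seen at 6 and 8 weeks but not at 4 weeks, where LGD replicate 3 fell among the normal arrays.

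Osm encodes oncostatin M, a cytokine of myeloid and T cells that acts on stromal and epithelial cells through its receptor. Signals of 49.6, 61.4 and 57.9 in normal mucosa stood against 137, 266 and 316 in inflamed mucosa, and the change was 1.75 ± 0.38 (limma adjusted p = 0.00166). LGD replicate 1, at 208, reached into the inflamed range, while the other LGD arrays, at 53.3 and 61.5, were at the level of normal mucosa. It was the only later array above the lowest inflamed array for any of the 9 genes. The other later arrays ran from 50.7 to 111.

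Lif encodes leukaemia inhibitory factor, which signals through gp130 paired with the LIF receptor. Its signals were 59.3, 42.8 and 60.6 in normal and 122, 255 and 309 in inflamed mucosa, a change of 1.72 ± 0.26 (limma adjusted p = 1.03e-04). In HGD at 6 weeks (87.0, 83.3 and 68.7) and in inflamed HGD (110, 70.8 and 94.0) no array overlapped normal mucosa, which held upward for 17.6% and 15.5% of all genes. The changes of 0.45 ± 0.26 and 0.61 ± 0.26 did not pass (limma adjusted p = 0.365 and 0.133). Of the fits with 1 array left out, only that without inflamed replicate 1 called the change in inflamed HGD (limma adjusted p = 0.0473). That array is in neither group compared, so the change stayed at 0.61 and only its SE fell, to 0.18.

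**Figure D1:**
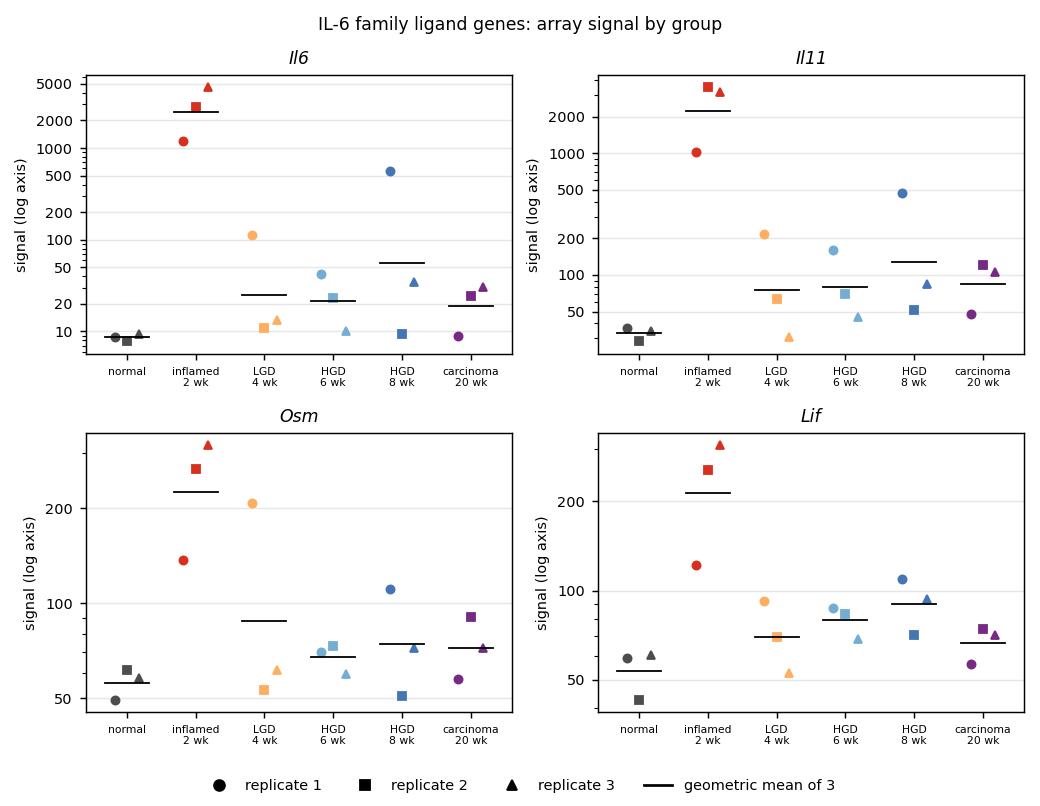
Signal of the 4 ligand genes on each array (log axis, points by replicate), by group, with the geometric mean of 3 as a line. Inflamed mucosa lies above normal mucosa on every array, and replicate 1 of LGD and of inflamed HGD (8 wk) is the highest of its group in all 4 genes.

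Among the receptors, Osmr encodes the oncostatin M receptor chain that pairs with gp130. It rose by 2.95 ± 0.32 in inflamed mucosa (limma adjusted p = 9.03e-06), from signals of 357, 263 and 285 to 2381, 2431 and 2448. The inflamed arrays were nearly equal, unlike those of its ligand. In LGD the signals were 724, 584 and 539, all above normal mucosa, as for 16.3% of genes tested, with a change of 0.99 ± 0.32 that did not pass (adjusted p = 0.0801). That change passed when replicate 1 or replicate 2 of inflamed HGD was left out (adjusted p = 0.0301 and 0.0159). Those arrays are in neither group compared, so the change stayed at 0.99 and only its SE fell, to 0.25 and 0.20. In inflamed HGD the signals spread from 249 to 910, and the change of 0.73 ± 0.32 passed only without replicate 2 (1.22, adjusted p = 0.0184).

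Il6st, the gene of the shared chain gp130, had signals of 516, 591 and 570 in normal mucosa and 2456, 3209 and 2520 in inflamed mucosa. The change was 2.25 ± 0.27 (limma adjusted p = 1.9e-05). In LGD the signals of 810, 941 and 674 were again all above normal mucosa, with a change of 0.51 ± 0.27 (adjusted p = 0.267). In carcinoma they were 689, 475 and 538, and the change was 0.01 ± 0.27, with a 95% interval of -0.58 to 0.59. A second bright probe set of Il6st, 1437303_at, gave 0.49 ± 0.24 in carcinoma. In inflamed HGD it gave 0.85 ± 0.24 (limma adjusted p = 0.0536), against 0.14 ± 0.27 for the probe set used. In HGD at 6 weeks it gave 0.36 ± 0.24, against -0.26 ± 0.27. The later level of Il6st thus rests on the probe set read.

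Il6ra encodes the receptor chain that binds interleukin-6, present on few cell types and also shed in soluble form. It showed the smallest increase of the family at 2 weeks, 1.01 ± 0.24 (limma adjusted p = 0.00268), from signals of 169, 247 and 138 to 364, 360 and 413. It was also the gene of the 9 with most later arrays below all normal arrays, 7 of 12, a count not made over all genes. In HGD at 6 weeks, at 126, 101 and 125, all 3 arrays lay below all 3 normal arrays, as for 17.4% of all genes. The change was -0.56 ± 0.24 and did not pass (adjusted p = 0.207). The second probe set of Il6ra, 1422270_a_at, did not show this fall. Its changes were -0.05 ± 0.12 in HGD at 6 weeks, 0.08 ± 0.12 in inflamed HGD and 0.03 ± 0.12 in carcinoma.

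Stat3 encodes the transcription factor that the receptors activate by phosphorylation, a step that RNA does not show. Its signals were 723, 643 and 686 in normal and 1807, 1500 and 1689 in inflamed mucosa. The change of 1.26 ± 0.11 had the smallest adjusted p of the family (1.16e-06 by limma). In LGD the signals of 776, 769 and 931 were above normal mucosa, with a change of 0.26 ± 0.11 (adjusted p = 0.146). In carcinoma they were 663, 748 and 679, and the 95% interval of the change ran from -0.20 to 0.25 on the log2 scale.

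**Figure D2:**
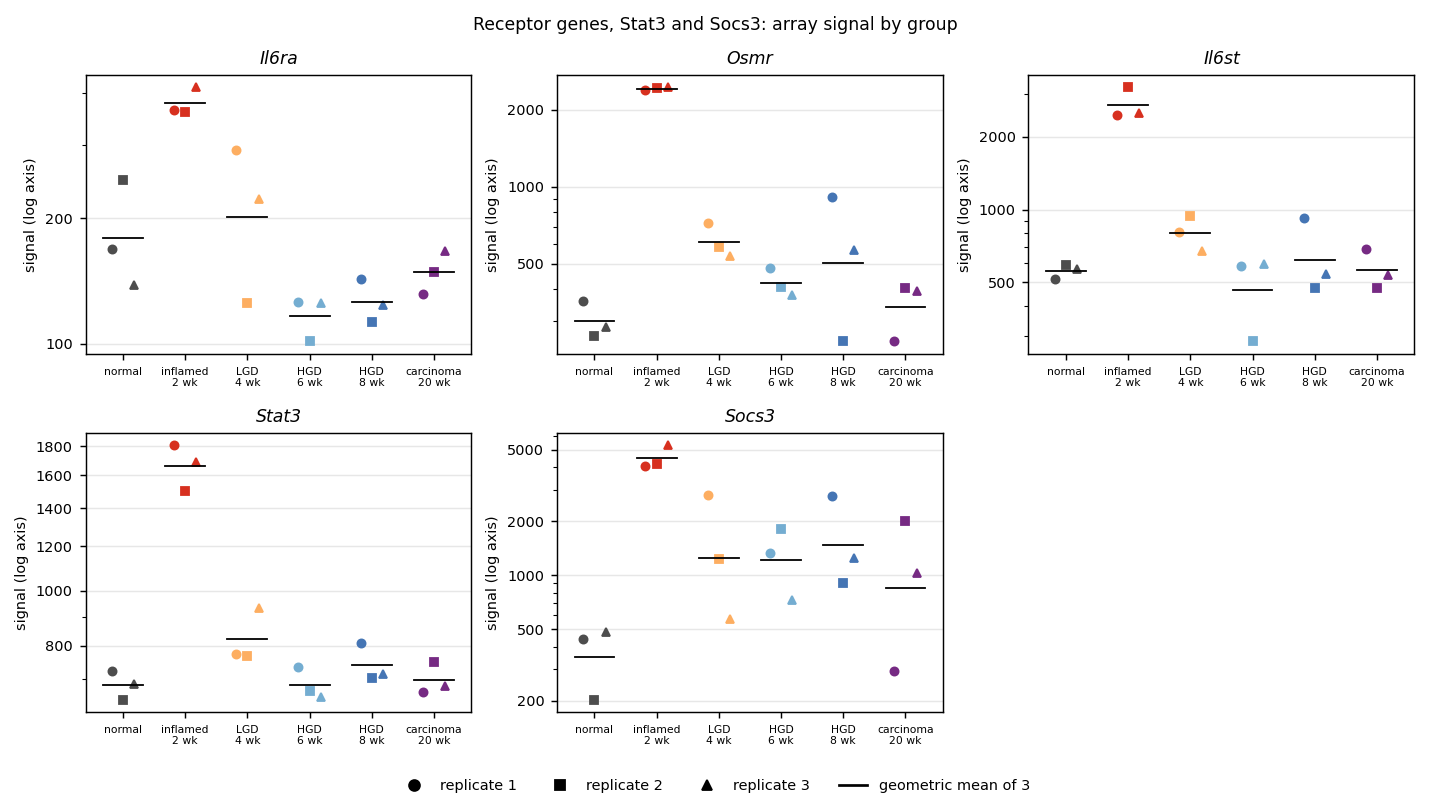
Signal of the receptor genes, Stat3 and Socs3 on each array (log axis, a different range in each panel), by group, with the geometric mean of 3 as a line. Inflamed mucosa is above all other arrays in each panel, and Socs3 is above normal mucosa on 11 of 12 later arrays.

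Socs3, the feedback inhibitor, is the classical target of STAT3. Its promoter is shown because it is the one promoter window of the family that holds a STAT element. The element searched was TTCNNNGAA, which reads the same on both strands, in RefSeq windows from 250 bases before to 50 bases after annotated starts (build GRCm38.p6). Windows were found for 9 of the 10 genes, and 1 gene, Socs3, had a match. Of all 32851 windows 8.3% hold one, and of all 27025 genes with a window 9.55%. The Socs3 window lies at chr11:117969317-117969616 on the minus strand, and the match, in capitals, begins 154 bases before that start.
Socs3: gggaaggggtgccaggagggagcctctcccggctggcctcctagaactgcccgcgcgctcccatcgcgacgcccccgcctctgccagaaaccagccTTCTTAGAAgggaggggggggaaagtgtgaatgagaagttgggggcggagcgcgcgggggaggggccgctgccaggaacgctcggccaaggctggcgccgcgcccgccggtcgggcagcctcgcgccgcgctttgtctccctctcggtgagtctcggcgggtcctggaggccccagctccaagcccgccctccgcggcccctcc

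Socs3 signals were 440, 203 and 483 in normal mucosa and 4070, 4192 and 5305 in inflamed mucosa, a change of 3.62 ± 0.66 (limma adjusted p = 4.68e-04). In LGD they were 2822, 1236 and 567, in HGD at 6 weeks 1335, 1812 and 732, in inflamed HGD 2784, 911 and 1249, and in carcinoma 293, 2003 and 1032. Carcinoma replicate 1 was the one later array inside the normal range. The changes were 1.79 ± 0.66, 1.74 ± 0.66, 2.02 ± 0.66 and 1.24 ± 0.66 in that order (limma adjusted p of 0.117, 0.169, 0.061 and 0.339). None passed, although their 95% intervals lay above 0 in LGD (0.37 to 3.21), HGD at 6 weeks (0.32 to 3.16) and inflamed HGD (0.59 to 3.44). In LGD the change passed without LGD replicate 3 (2.36, adjusted p = 0.0384). In HGD at 6 weeks it passed when only those 6 arrays were fitted (adjusted p = 0.0261), a fit that called 1633 of all genes against 147 with all 18 arrays. In inflamed HGD it passed without LGD replicate 1 or 3 or carcinoma replicate 1 or 2 (adjusted p from 0.0364 to 0.0498). Those arrays are in neither group compared, so the change stayed at 2.02 and only its SE fell. The probe set of Socs3 used here is of a type that may bind related transcripts (its name ends in _x_at). A second one without that mark, 1416576_at, rose by 3.10 ± 0.49 at 2 weeks (limma adjusted p = 1.94e-04). At the later stages it gave smaller changes than the probe set used. These were 1.13, 1.06, 1.36 and 0.54 in time order (each ± 0.49), and none passed. The third, 1456212_x_at, gave 1.67, 1.73, 1.97 and 1.33 (each ± 0.59), and none passed.

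**Figure D3:**
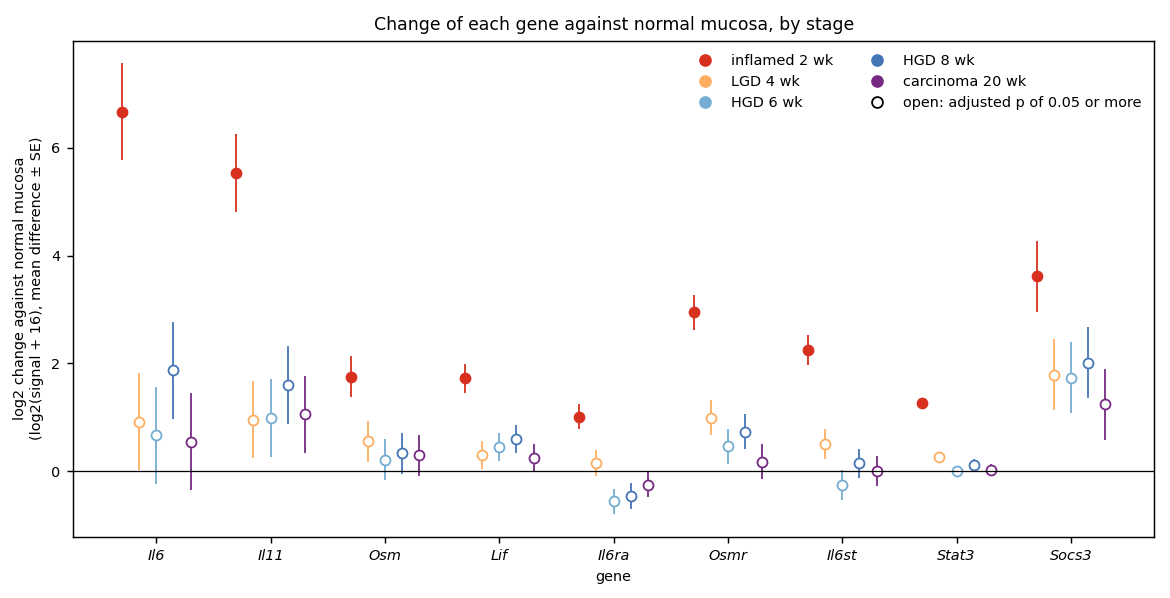
Log2 change of each gene against normal mucosa (points, with SE bars) at the 5 stages, filled where the adjusted p was under 0.05. Only the points of inflamed mucosa are filled, and those of Socs3 at later stages lie between 1.24 and 2.02.

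The comparison of LGD with inflamed mucosa sets lesions 14 days after DSS against mucosa sampled as the first cycle ended. Lesion type, age, time since DSS and tissue make-up all differ between these groups and cannot be told apart. Epithelial markers, for example, had a mean of -3.11 from normal mucosa in the inflamed group and of -0.13 in LGD. All 9 genes were lower in LGD, where 17.0% of all genes tested were called lower. Il6 fell by 5.75 ± 0.90 (limma adjusted p = 2.45e-04), Il11 by 4.57 ± 0.72 and Osmr by 1.96 ± 0.32. The Il6 test had to start from a difference, since Il6 passed the dim-gene filter only through the inflamed arrays. Il6st fell by 1.74 ± 0.27, Lif by 1.42 ± 0.26, Osm by 1.19 ± 0.38 and Stat3 by 1.00 ± 0.11 (adjusted p = 1.38e-05). Socs3 fell by 1.82 ± 0.66 with an adjusted p of 0.0442. That Socs3 call was lost under 13 alternatives (limma adjusted p from 0.0520 to 0.185): without the dim-gene filter, with only those 6 arrays, with a replicate block, and without 1 array of any of 10. These were normal replicates 1 and 3, all 3 inflamed arrays, LGD replicates 2 and 3, HGD replicate 1 at 6 weeks, inflamed HGD replicate 3 and carcinoma replicate 3. With only those 6 arrays fitted, Osm (adjusted p = 0.136) and Il6ra (0.0717) were not called either. Osm was also lost without inflamed replicate 2 or 3 or LGD replicate 2 or 3 (adjusted p from 0.0797 to 0.120). Il6ra was lost without LGD replicate 2, the array with the high Gapdh ratio (0.0545). Il6, Il11, Lif, Osmr, Il6st and Stat3 were called lower in every alternative tried.

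Carcinoma was compared with inflamed mucosa in the same way, and the same differences between the groups cannot be told apart there. All 9 genes were lower in carcinoma, where 21.2% of all genes were called lower, and no array overlapped for any of the 9, as for 27.6% of all genes. Il6 was lower by 6.13 ± 0.90 on the log2 scale (limma adjusted p = 1.08e-04) and Socs3 by 2.38 ± 0.66 (adjusted p = 0.0102). For Il6 this test, too, had to start from a difference because of the dim-gene filter. The Socs3 call was lost without carcinoma replicate 1 (adjusted p = 0.056).

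Only the HGD group of 8 weeks is labelled as having active inflammation, and it was compared with HGD at 6 weeks. Neutrophil marker means did not separate the groups, at 1.39, 1.90 and 1.04 above normal mucosa at 6 weeks and 3.46, 0.81 and 2.23 at 8 weeks. The median change of the 8 markers against normal mucosa was 0.40 at 6 weeks and 1.50 at 8 weeks. Between 8 and 6 weeks 0 of all 12877 genes were called by limma (423 had an unadjusted p under 0.05), and the family gave 0 calls and 0 unadjusted p under 0.05. Its changes ran from 0.10 to 1.21, led by Il6. Carcinoma against inflamed HGD also gave 0 calls among all genes by limma (1422 had an unadjusted p under 0.05), and the family's changes ran from -1.33 for Il6 to 0.21 for Il6ra, with 0 unadjusted p under 0.05.

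The order of the groups by mean level was alike at its top in all 9 genes. Inflamed mucosa came first in each, and its gap to the next group exceeded the larger standard deviation of the pair. Normal mucosa came last for Il6, Il11, Osm, Lif, Osmr and Socs3, and in Il6ra it ranked 3rd. Il6 was followed by inflamed HGD (6.50 ± 2.37, SD on the log2 scale, n = 3), LGD (5.54 ± 1.27), HGD at 6 weeks (5.29 ± 0.57), carcinoma (5.17 ± 0.47) and normal mucosa (4.62 ± 0.05). From inflamed HGD to carcinoma, neighbours did not differ beyond their spread, and carcinoma lay above normal mucosa by more than the larger standard deviation of that pair. That change did not pass, at 0.55 ± 0.90 (SE, limma adjusted p = 0.791). Carcinoma replicate 1, at a signal of 8.90, lay within the normal range of 7.79 to 9.33. All signals of both groups were below the table median of 56.6.

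Single arrays stood out within the later stages. LGD replicate 1 was above all normal arrays in all 9 genes and inflamed HGD replicate 1 in 8 of 9. The other later arrays were so in 6 or 7 of 9, apart from inflamed HGD replicate 2 (4) and carcinoma replicate 1 (2). The share of all genes was not counted for single arrays, so these counts have no background to be read against. LGD replicate 1 and inflamed HGD replicate 1 did not hold every maximum, since the highest later array was LGD replicate 2 for Il6st and LGD replicate 3 for Stat3. Outside the inflamed group both arrays had the highest means of 8 neutrophil markers. For LGD the neutrophil mean was 5.31, 2.18 and 0.68 above normal mucosa in replicates 1, 2 and 3, and for inflamed HGD it was 3.46, 0.81 and 2.23 (differences of mean log2 values). LGD replicate 1 also had the highest later means of macrophage (0.72), fibroblast (0.95) and endothelial (0.69) markers and an epithelial mean of -0.66. Inflamed HGD replicate 1 had the highest later means of B and plasma cell (1.50) and T cell (0.75) markers. The part of these cells in the values of single arrays was not tested.

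**Figure D4:**
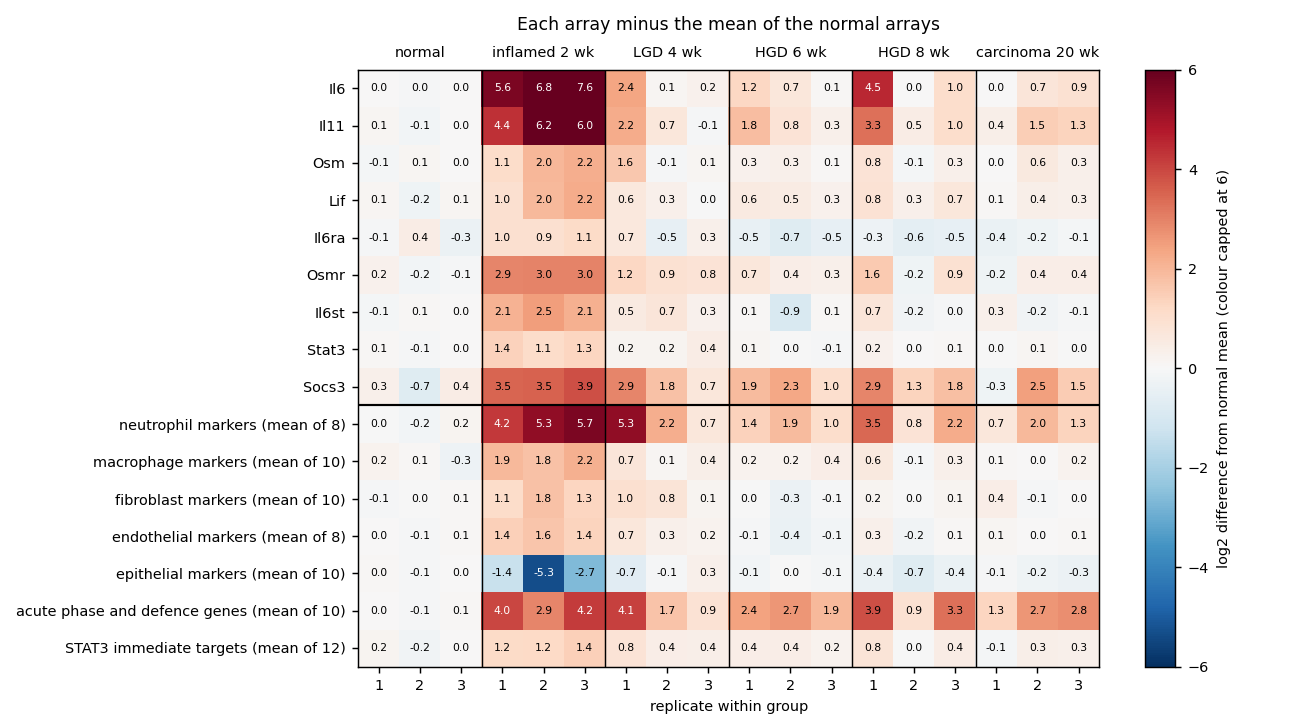
Difference of each of the 18 arrays from the mean of the normal arrays (log2 scale, colour and number) for the 9 genes and for the mean of 7 gene lists. All 9 genes are above 0 on every inflamed array, and among the later arrays LGD replicate 1 and inflamed HGD (8 wk) replicate 1 hold the highest Il6 and Il11 values.

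Markers of several cell types moved with the family at 2 weeks. Of the 8 neutrophil markers tested 8 rose, such as S100a9, a calprotectin subunit gene, by 8.43 ± 1.40 (limma adjusted p = 2.05e-04). Their mean ran from 4.23 to 5.65 above normal mucosa across the inflamed arrays. Of 10 macrophage markers 9 rose, led by the scavenger receptor gene Cd163 (3.36 ± 0.38), with means 1.76 to 2.16 above normal. Of 10 fibroblast markers 9 rose, led by the podoplanin gene Pdpn (2.80 ± 0.20), with means 1.10 to 1.77 above normal, and of 8 endothelial markers 8 rose, led by Emcn (2.51 ± 0.25), with means 1.35 to 1.64 above normal. All 10 epithelial markers fell, where 24.3% of all genes were called lower, with a median change of -3.08 and means 1.36 to 5.31 below normal across the inflamed arrays, such as the intestinal transcription factor gene Cdx1 (-3.71 ± 0.50). Of the T cell markers 0 of 6 passed by limma (1 had an unadjusted p under 0.05) and of the mast cell markers 0 of 8 (0 unadjusted), and of the B and plasma cell markers 1 of 7 rose, Pou2af1 by 1.61 ± 0.57. Of 7 smooth muscle markers 0 passed by limma (1 had an unadjusted p under 0.05). Such an unadjusted p was found for 6879 of all 12877 genes. The median change over all genes was 0.01. How far these shifts in tissue make-up account for the rise of the family was not tested.

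Other genes of the pathway were counted at 2 weeks beside the 22.6% of all genes called higher and the 24.3% called lower. Among the other ligand and subunit genes 2 of 4 tested rose, Ebi3, a subunit of interleukin-27 and interleukin-35, by 1.72 ± 0.22 (limma adjusted p = 2.95e-05) and Il12a by 0.67 ± 0.16. Among the other receptor genes 1 of 4 rose, the LIF receptor gene Lifr by 1.01 ± 0.25. Of 6 kinase, phosphatase and shedding genes 3 rose and 1 fell. Adam17, the gene of the protease that sheds the IL-6 receptor, rose by 0.73 ± 0.16. The kinase gene Jak1 rose by 0.69 ± 0.16 and the phosphatase gene Ptpn11 by 0.47 ± 0.13. The kinase gene Tyk2, named after its value was seen, fell, with a change of -0.44 (limma adjusted p = 0.00147). Of 11 other feedback genes 4 rose and 2 fell, led by the phosphatase genes Ptpn1 (1.77 ± 0.19) and Ptpn2 (1.32 ± 0.11). Of 5 other STAT genes 4 rose, led by Stat4 (1.27 ± 0.33). Against normal mucosa at the later stages these 5 lists gave 1 call, Ptpn1 in LGD at 0.71 ± 0.19 (adjusted p = 0.0451), where 2.61% of all genes were called higher.

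Genes known to respond to STAT3 were described as a pair of lists, chosen with earlier results of these data known. Of 12 immediate targets 8 rose at 2 weeks, beside 22.6% of all genes, with a median change of 1.02, led by the transcription factor gene Cebpb (3.05 ± 0.43, limma adjusted p = 6.2e-05) and the adhesion molecule gene Icam1 (2.47 ± 0.28). In LGD 3 rose, Pim1, Il4ra and Hif1a, where 2.61% of all genes were called higher, and in inflamed HGD 4 rose, where 4.84% were, led by the kinase gene Pim1 at 0.99 ± 0.24 (adjusted p = 0.0218). In HGD at 6 weeks and in carcinoma 0 of 12 passed by limma (6 and 4 had an unadjusted p under 0.05), and Myc had the smallest p, at 0.65 ± 0.19 and 0.59 ± 0.19 (adjusted p = 0.102 and 0.134). Of all 12877 genes 2527 and 2378 had an unadjusted p under 0.05 at those 2 stages.

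Of 10 acute phase and epithelial defence genes 7 rose at 2 weeks, beside 22.6% of all genes, led by Saa3 (6.92 ± 1.07), Hp (6.71 ± 1.09) and Lcn2 (6.63 ± 1.07, limma adjusted p = 1.63e-04). Saa1, which encodes another serum amyloid A, had a change of -2.21 (adjusted p = 0.0518) that did not pass, and was named after its value was seen. The median change of the 10 was 3.96, and at the later stages it was 2.64, 1.93, 2.81 and 1.78 in time order, while the median over all genes stayed within -0.02 and 0.03. In inflamed HGD 4 passed, among them Saa3 (4.44 ± 1.07) and Lcn2 (4.10 ± 1.07), and in LGD 1, the protease inhibitor gene Timp1 (2.36 ± 0.49). In HGD at 6 weeks and in carcinoma 0 of 10 passed by limma (6 and 5 had an unadjusted p under 0.05, as had 2527 and 2378 of all 12877 genes). The lowest of the 12 later arrays had a list mean 0.88 above normal mucosa, in LGD replicate 3.

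The STAT element was also present in the promoter windows of 4 of the 10 acute phase and defence genes with a window, of 1 of 10 immediate targets and of 1 of 7 other feedback genes, beside 9.55% of all genes. Those 10 acute phase and defence genes are not the 10 tested above. Of the 4 with a match, Reg3b and Steap4 were tested, and Itih4 and Fgb were not. The element was also in 1 of 4 other receptor genes and in 0 of 5 other ligand, 0 of 6 kinase, phosphatase and shedding and 0 of 5 other STAT genes. Among the marker lists it was in 1 of 10 neutrophil, 1 of 6 macrophage, 1 of 6 T cell and 1 of 7 epithelial genes, and in none of the B and plasma cell, mast cell, fibroblast, endothelial and smooth muscle genes with a window. The matches in the 4 tested genes of the acute phase, immediate target and other feedback lists are shown for comparison with Socs3. Each has up to 26 bases on either side and the element in capitals. Their windows lie at chr6:78370635-78370934, chr5:7960222-7960521, chr9:21015690-21015989 and chr9:107296409-107296708, all on the plus strand.
Reg3b: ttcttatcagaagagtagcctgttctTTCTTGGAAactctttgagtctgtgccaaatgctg
Steap4: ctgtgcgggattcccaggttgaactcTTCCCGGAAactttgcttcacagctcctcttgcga
Icam1: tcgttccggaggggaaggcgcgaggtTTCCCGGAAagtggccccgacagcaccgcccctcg
Cish: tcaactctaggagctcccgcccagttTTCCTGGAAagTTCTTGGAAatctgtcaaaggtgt
These genes did not move alike at 2 weeks. Icam1 rose by 2.47 ± 0.28 and the metalloreductase gene Steap4 by 1.93 ± 0.51 (limma adjusted p = 0.00612). Cish, a feedback gene best known from STAT5 signalling and the one with 2 matches, fell by 0.46 ± 0.14 (adjusted p = 0.0155). Reg3b, which encodes an antibacterial lectin, had a change of 3.72 ± 1.89 that did not pass (adjusted p = 0.122). In carcinoma its change was 5.89 ± 1.89, with all 3 arrays above normal mucosa, and also did not pass (adjusted p = 0.131).

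Genes whose values over the 18 arrays ran closest to each family member were found by the root mean square difference after each gene was centred on its own mean. For Il6, with a standard deviation over the arrays of 2.54, the closest gene of 12877 was Il11 (0.65 on the log2 scale), followed by the chemokine gene Ccl2 (0.79) and the epiregulin gene Ereg (0.87). For Il11 they were Ereg (0.51), Ccl2 (0.63) and Il6 (0.65). For Osm they were Pstpip1 (0.18), the interleukin-1 alpha gene Il1a (0.21) and Apobr (0.21), and for Lif they were Dnmt3l, Hs3st1 and Renbp (all 0.21). For Osmr they were Nr4a1, Pde4b and Tspan4 (0.25 to 0.26), for Il6st Cyyr1, Lama4 and the endothelial gene Plvap (0.20 to 0.22), and for Il6ra Bcl6, Gas7 and Jcad (0.25 to 0.26). For Stat3 they were Ppp1r15a, Pelo and Mrap (all 0.13), and for Socs3 they were Ier3 (0.49), Ccr1 (0.54) and Slc15a3 (0.55). The inflamed arrays are among the 18, so genes with a rise of like size at 2 weeks come out close. That rise was 5.53, 4.94 and 4.48 for the genes closest to Il6. For those closest to Stat3 it was 1.31, 1.07 and 1.27. Likeness among the other stages alone was not tested.

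Other probe sets of the 9 genes were compared with those used. Of the 21 probe sets 17 were called higher at 2 weeks in a fit over all probe sets with 1 gene, and 0 were lower. Those of the 12 others that were not called were 1422270_a_at of Il6ra at 0.15 ± 0.12, 1421239_at of Il6st at 0.14 ± 0.09, and 1424272_at and 1459961_a_at of Stat3 at 0.13 ± 0.09 and 0.47 ± 0.22. The second bright probe set of Stat3, 1460700_at, rose by 0.93 ± 0.10 and that of Il6st, 1437303_at, by 1.29 ± 0.24. The second probe set of Lif, 1450160_at, was called with a change of only 0.15 ± 0.05, at a low signal. The 21 probe sets gave 0 calls at the 4 later stages by limma. There 1437303_at of Il6st had changes of 0.36, 0.36, 0.85 and 0.49 in time order (each ± 0.24). The size of the change therefore rests on the probe set read, and the direction at 2 weeks was the same in all 21.

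**Figure D5:**
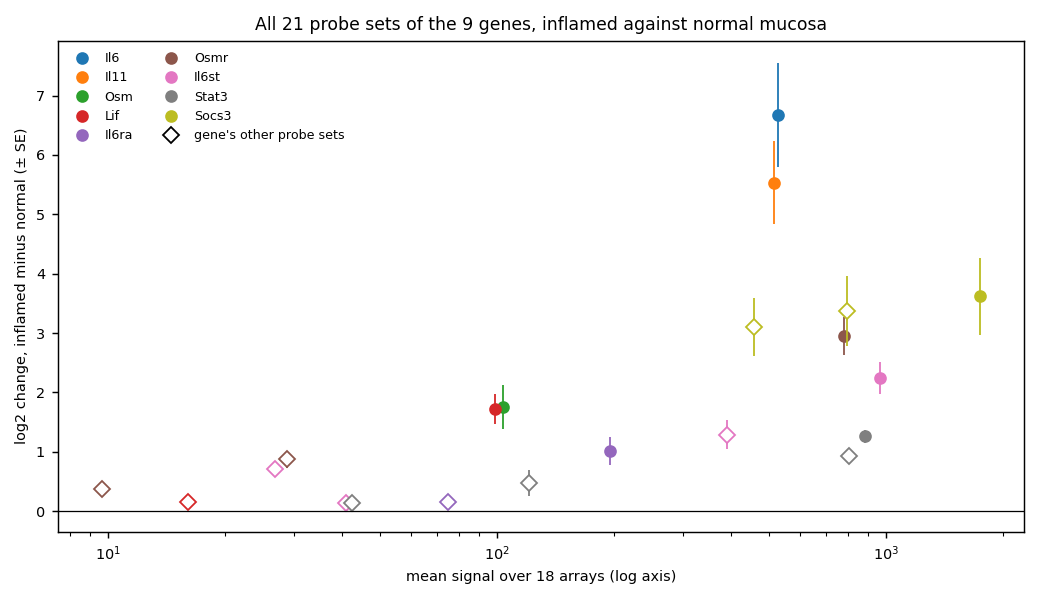
Log2 change in inflamed against normal mucosa (with SE bars) of all 21 probe sets, against their mean signal over 18 arrays (log axis), with the probe set used for each gene filled and the others as open diamonds. The 7 dimmest open diamonds, with mean signals from 9.63 to 74.6, have changes between 0.13 and 0.87, below that of the filled point of the same gene.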

How the data were processed

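Expression was measured on 18 single-colour mouse arrays of 45101 probe sets. The deposited values are probe set intensity on a linear scale, and the tool MAS5 is named per the submitters' processing notes. How it was run, and which version, is not given in the sources used here. No further normalization was applied. Array annotation paired 34945 probe sets with 1 gene, 932 with several and 9160 with none, and 64 control probe sets were left out. Values were taken as log2(signal + 16). Probe sets of 1 gene with a signal above the table median on at least 3 arrays were kept, and where a gene had several the one of highest mean stood for it, which left 12877 genes. One limma model (version 3.58.1, R 4.3.3) with an intensity trend held the 6 groups, with 12 residual degrees of freedom, and 9 comparisons were drawn from it. Benjamini-Hochberg adjustment ran over all genes within a comparison, at 0.05. The code was tested on simulated data.

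From each gene list and comparison with normal mucosa, up to 3 genes were eligible to be named, those of largest change past the threshold, or else the gene with the smallest p. Genes of the promoter search were named for their match, and the 3 closest genes of each family member by likeness. The members and lists were chosen with earlier results of these data known. A planned comparison of protein sequences was not made, and Osm had no promoter window in the RefSeq table used. Alternatives tried were pseudocounts of 1 and 64, no filter, median scaling, quantile normalization, the mean of a gene's probe sets, only the groups compared, no trend, a replicate block, leaving out each array in turn and, chosen after seeing the data, leaving out the inflamed group.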

Additional observations from a re-analysis of the deposited data

Results flagged for a closer look

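The change from normal mucosa differed between inflamed mucosa and LGD, and between inflamed mucosa and carcinoma, in all 9 genes by limma's test of the difference, where 17.0% and 21.2% of all genes were called lower. The normal arrays cancel in these differences, and both share the inflamed arrays, so they are not independent. For Il6 both tests had to start from a difference, since it passed the dim-gene filter only through the inflamed arrays. In LGD the call was lost under 13 alternatives for Socs3, 5 for Osm and 2 for Il6ra, and in carcinoma under 1 for Socs3. LGD minus inflamed mucosa was -5.75 for Il6, -4.57 for Il11, -1.19 for Osm and -1.42 for Lif on the log2 scale. It was -0.85 for Il6ra, -1.96 for Osmr, -1.74 for Il6st and -1.82 for Socs3, and Stat3 fell by 1.00. Carcinoma minus inflamed mucosa was -6.13 for Il6, -4.48 for Il11, -1.46 for Osm and -1.47 for Lif. It was -1.26 for Il6ra, -2.77 for Osmr, -2.24 for Il6st, -1.24 for Stat3 and -2.38 for Socs3.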

How the results depend on the processing

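All 9 calls at 2 weeks against normal mucosa held under every alternative run on that comparison. Over single genes, comparisons and alternatives, 1690 of 1737 values kept their direction and their side of the threshold, 21 lost a call, 10 gained one and 16 changed sign, all 16 of them in changes that were not called. Leaving out 1 array in turn gave 0 to 1 called genes of the family in LGD and 0 to 1 in inflamed HGD against normal mucosa, where 0 were called with all arrays. Fitting only the groups compared gave 1 in HGD at 6 weeks, Socs3. Without the inflamed group the F test called 0 of 9.

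The changes that turned sign were small. For Stat3 in HGD at 6 weeks the value was 0.0154 with median scaling and 5.43e-05 with quantile normalization, and with 1 array left out it ran from -0.0539 to 0.0375. With the mean of a gene's probe sets, Il6st in HGD at 6 weeks was at 0.0494 and Stat3 in carcinoma at -0.0710. With 1 array left out, Il6st ran from -0.432 to 0.0794 in HGD at 6 weeks, from -0.139 to 0.332 in inflamed HGD and from -0.138 to 0.122 in carcinoma. Stat3 in carcinoma ran from -0.0257 to 0.0652 and Il6ra in LGD from -0.0917 to 0.468. Causes were not tested.

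Replicate numbers did not pair the arrays: deviations from group means correlated between -0.46 and 0.33 among same-numbered arrays, with a median of -0.00. With the replicate number as a block, 9 of 9 were called at 2 weeks against normal mucosa and 8 of 9 in LGD against inflamed mucosa, where Socs3 had an adjusted p of 0.0614. The block changed no other call of the family. Over all genes it called 31 in HGD at 6 weeks and 44 in carcinoma, against 147 and 116.

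Counts over all genes at the later stages moved more. With 1 array left out they ran from 70 to 1787 in LGD (733 with all arrays), from 6 to 439 in HGD at 6 weeks, from 333 to 2202 in inflamed HGD (1450) and from 8 to 372 in carcinoma. With only the groups compared they were 50, 1633, 761 and 529. Without the inflamed group they were 24 in HGD at 6 weeks and 47 in carcinoma. The size of the Il6 change at 2 weeks depends on the pseudocount, since its normal signals are low: 8.02 with 1, 6.67 with 16 and 5.14 with 64, all called.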
